A study of Mus musculus with 12 samples.

Results

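Cdk4, Cdk6, Cdk2, Ccnd1 and the 6 genes Mcm2 to Mcm7 form a set of 10 cell cycle entry genes, out of 21887 protein-coding genes, whose USF2 binding was read from 4 deposited peak lists. The genes were chosen by name, with earlier results of these lists known, above all the calls at Cdk4 and Mcm2. A gene counted as called in a list when the summit of a peak, its highest point, lay within 1000 bp of either end of the annotated gene or inside it. Because the calls chose the set, its counts and values are a description and carry no test.

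USF2 belongs to the transcription factors that bind as dimers through a basic helix-loop-helix leucine zipper, and its best known target is the E-box, the DNA letters CACGTG. Its binding was profiled by ChIP-seq, the sequencing of DNA fragments that an antibody against a protein brings down with it, in mouse embryonic fibroblasts (MEFs), which the labels give as wild type in all 4 libraries. There were 2 libraries after glucose starvation (starved 1 and starved 2) and 2 in normal culture (normal 1 and normal 2), and the other 8 samples of the series, 6 inputs and the H3K27ac ChIP of Usf2 WT and Usf2 KO cells, were not analysed here. The length of the starvation is not given in the sources used here, nor whether replicates were separate cultures, and the peak lists hold no expression of marker genes against which the cell type could be checked.

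In the textbook account of cell cycle entry, D-type cyclins such as cyclin D1 (Ccnd1) switch on the kinases CDK4 and CDK6 in G1, and these begin to phosphorylate the retinoblastoma protein, which releases the E2F factors. CDK2 with E- and A-type cyclins then carries the cell into S phase. The proteins of Mcm2 to Mcm7 form the ring that is loaded on replication origins in G1 and becomes the core of the helicase that unwinds DNA, and many genes of this system are E2F targets.

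The starved lists held 825 and 1178 peaks and the normal lists 1645 and 2124 peaks on the assembled chromosomes. The narrowest peak was 306 bp in both starved lists and 152 bp in both normal lists. The lowest background was 0.131 and 0.133 reads in the starved lists and 0.0979 reads in both normal lists. Divided by the narrowest width, as a rough measure of depth, it was 428.4 and 434.1 reads per Mb in the starved libraries. In the normal libraries it was 644.0 and 644.1. Calling width thus differs along with the condition, and so does depth as estimated in this way. A missing call says that no peak passed the caller's threshold there. The normal lists shared 152 peaks with the same start, end and summit (9.24% of normal 1 and 7.16% of normal 2, median summit pileup 5 reads), the starved lists shared 7 such peaks, and no pair of lists across conditions shared any. The fold enrichment was also the same, to within 0.1%, for 136 of the 152 peaks and for 0 of the 7. What made these peaks identical was not tested, nor was whether the 2 normal lists are independent of each other.

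The promoter of Cdk4 is shown first, since it was the one member promoter with a USF2 summit in all 4 lists. The RefSeq window on GRCm38.p6, chr10:127063285-127063584 on the plus strand, runs from 250 bases before the start to 50 after it, and CACGTG is in capitals.
Cdk4: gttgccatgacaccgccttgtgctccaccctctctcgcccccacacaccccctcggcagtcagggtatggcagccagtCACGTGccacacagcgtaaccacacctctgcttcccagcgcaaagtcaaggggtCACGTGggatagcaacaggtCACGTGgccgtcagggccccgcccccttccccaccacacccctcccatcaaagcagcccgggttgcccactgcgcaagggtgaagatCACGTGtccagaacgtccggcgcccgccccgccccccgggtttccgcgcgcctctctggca

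This window holds 4 copies of CACGTG, whose first bases lie 172, 118, 98 and 11 bp before the start. The 3 copies farthest from the start carry the longer form GTCACGTG. Of 32851 promoter windows in the RefSeq table, 7.15% held CACGTG on at least 1 strand (it reads the same on both) and 2.25% held GTCACGTG on either strand. Only 8 windows, of 6 genes, held 4 or more copies of CACGTG, and apart from Cdk4 these genes were Lamp1, Zmym6, Mfsd1, Nxf2 and Gm40008.

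For contrast, windows of members without a call at the start are shown by the part that holds a motif. Capitals mark CACGTG in Cdk6 and an E2F-type motif, TTTGGCGC or TTTCCCGC on either strand, in the others, each written in the direction of its gene.
Cdk6 (chr5:3343658-3343695, plus strand): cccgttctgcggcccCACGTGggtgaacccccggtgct
Mcm6 (chr1:128359730-128359830, minus strand): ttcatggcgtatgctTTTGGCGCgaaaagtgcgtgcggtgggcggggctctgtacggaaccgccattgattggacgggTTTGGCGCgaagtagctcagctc
Mcm5 (chr8:75109345-75109382, plus strand): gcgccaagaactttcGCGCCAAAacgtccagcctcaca
Mcm7 (chr5:138172026-138172063, minus strand): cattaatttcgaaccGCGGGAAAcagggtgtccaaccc
Cdk2 (chr10:128705169-128705206, minus strand): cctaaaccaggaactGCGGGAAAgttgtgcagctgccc

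RefSeq windows were at hand for 8 members (9 windows), all but Ccnd1 and Mcm4. CACGTG occurred in 2 of the 8, Cdk4 with 4 copies and Cdk6 with 1 copy, 220 bp before its start. An E2F-type motif occurred in 5 of the 8, Cdk2, Mcm3, Mcm5, Mcm6 and Mcm7, against 1.56% of all windows, and not in Cdk4, Cdk6 or Mcm2. No E-box was found in a window of an MCM gene. These matches are letters in a window of fixed length and do not by themselves show binding.

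Of the 10 members, 3 were called in any list, Cdk4, Mcm2 and Mcm5, and the other 7 (Cdk6, Cdk2, Ccnd1, Mcm3, Mcm4, Mcm6 and Mcm7) in none. By the same rule 10.5% of all protein-coding genes were called in any list. Cdk4 was the 1 member called in starved 1 and in starved 2, where 3.23% and 4.10% of all genes were called. The same 3 members were called in normal 1 and in normal 2, where 5.46% and 6.50% of all genes were called. Thus 1 member was called in both starved lists (background 2.48% of genes), 3 in both normal lists (4.08%) and 1 in all 4 lists (1.35%). With gene ends alone, Mcm5 dropped out: 2 members were called in any list (background 4.05%), 1 in both starved lists (1.78%), 2 in both normal lists (2.19%) and 1 in all 4 (1.13%). Since these calls chose the set, nothing is read from its counts against the background.

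**Figure D1:**
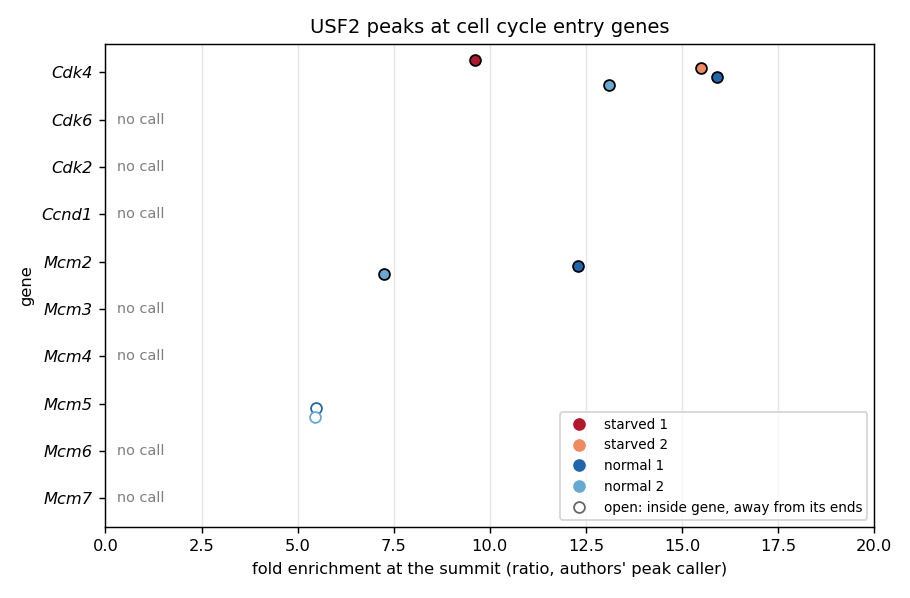
Fold enrichment (ratio, horizontal axis) of each USF2 peak that calls a member gene (vertical axis), 1 point per peak, coloured by peak list; filled points lie within 1000 bp of a gene end and open points inside the gene away from its ends. Cdk4 has a point in all 4 lists, between 9.62 and 15.9, Mcm2 and Mcm5 have points in the normal lists alone, and 7 members have none.

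Fold enrichment is the ratio, from the authors' peak caller, of the summit's read pileup to the local background, with 1 added to both. At Cdk4, the kinase that cyclin D activates, USF2 fold enrichment was 9.62 in starved 1 and 15.5 in starved 2. It was 15.9 in normal 1 and 13.1 in normal 2. Starved 2 lay between the 2 normal lists and starved 1 below both. The −log10 q of the same peaks was 29.0 and 45.0 in the starved lists and 41.5 and 35.4 in the normal lists. These ranges overlap, and because depth and calling width differ, no change between conditions was computed from them.

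By −log10 q the Cdk4 peak ranked 13 of 825 in starved 1 and 2 of 1178 in starved 2, and 10 of 1645 in normal 1 and 17 of 2124 in normal 2. By fold enrichment it stood lower, at 96 and 14 in the starved lists and 36 and 74 in the normal lists. The reads behind the peak, recovered from fold and p-value, show both sides of this ratio before 1 is added. The summit pileup was 49 and 54 reads in the starved lists and 48 and 47 reads in the normal lists, which gave the peak rank 3 by pileup in both starved lists, rank 5 in normal 1 and rank 4 in normal 2. The local background was 4.20 and 2.54 reads in the starved lists and 2.08 and 2.67 reads in the normal lists, between 19.1 and 32.0 times the lowest background of the same list. Cdk4 thus held one of the highest pileups of each list over a raised local background. Why the background was raised there was not tested.

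The Cdk4 peaks covered chr10:127063189-127063810 over the 4 lists. Cdk4 itself spans chr10:127063535-127067288 on the plus strand, and no other protein-coding gene has an end within 1000 bp of any of the 4 summits. The summits lay 46 and 117 bp before the Cdk4 start in starved 1 and starved 2, and 103 and 69 bp before it in normal 1 and normal 2. All 4 summits fell between the outermost E-boxes of the printed window, and all 4 E-boxes lay inside the peak in each list. The centre of the nearest E-box was 37.5 and 1.5 bp from the summit in the starved lists and 7.5 and 26.5 bp in the normal lists. The largest gap between Cdk4 summits was 71 bp, between the 2 starved lists, and the gaps across conditions were 14 to 57 bp.

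**Figure D2:**
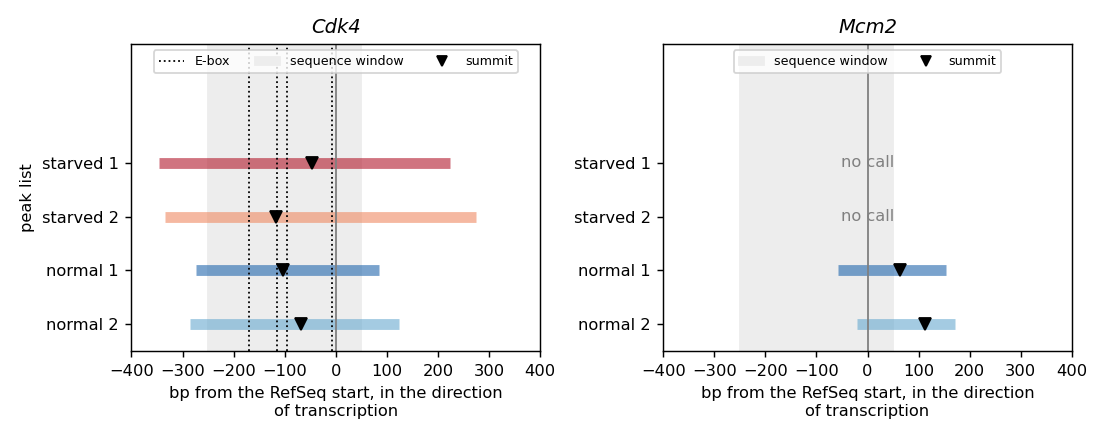
Peaks (bars) and summits (triangles) at Cdk4 and Mcm2 in each list, by distance from the RefSeq start in bp in the direction of transcription; dotted lines are E-boxes and the grey band is the sequence window from 250 bp before to 50 bp after the start. Cdk4 summits lie 46 to 117 bp before the start among 4 E-boxes, and Mcm2 summits lie 63 and 112 bp after the start, outside the band, with no call in the starved lists.

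To place this promoter among others, all windows were sorted by their number of CACGTG copies, a sorting that does not use the peak lists. Of windows with no copy, 0.0918% held a summit in both starved lists (28 of 30502) and 0.328% in both normal lists (100 of 30502). With 1 copy the shares were 6.64% (95% exact interval 5.62 to 7.77) for the starved and 7.38% (6.31 to 8.57) for the normal lists. With 2 copies they were 41.6% (34.0 to 49.5) and 38.0% (30.5 to 45.8), and with 3 copies 42.9% (21.8 to 66.0) and 47.6% (25.7 to 70.2). Of the 8 windows with 4 or more copies, 4 held a summit in all 4 lists, those of Cdk4, Lamp1, Zmym6 and Mfsd1. The intervals for 2, 3 and 4 or more copies overlap. Windows of 1 gene can overlap each other, and the intervals cover counting error only. Cdk6, with 1 copy, was thus in a class where most windows held no summit.

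**Figure D3:**
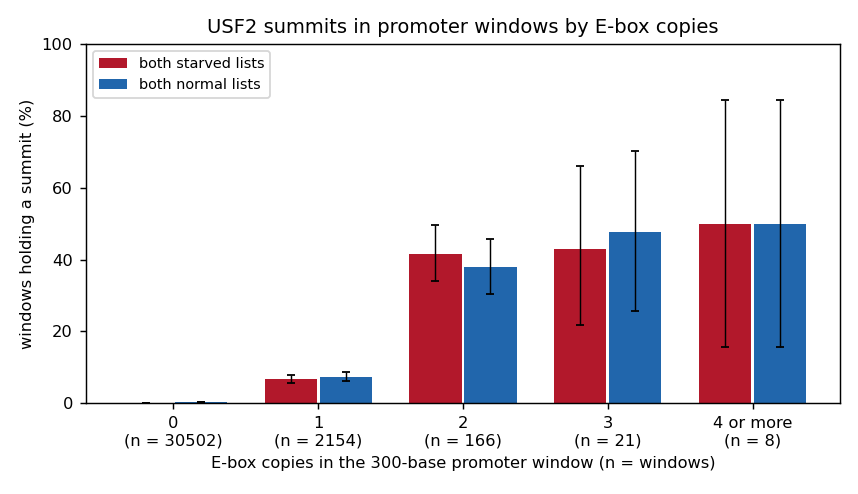
Share of 300-base RefSeq promoter windows that hold a USF2 summit in both lists of a condition (percent, vertical axis) by the number of E-box copies in the window (horizontal axis, n = windows); bars are shares and whiskers exact 95% intervals. The shares are 0.0918% and 0.328% without an E-box, 6.64% and 7.38% with 1 copy and 41.6% and 38.0% with 2, and Cdk4 is one of the 8 windows of the last class.

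Among the 247 protein-coding genes with a gene-end peak in all 4 lists, Cdk4 stood at place 85 and 16 by fold enrichment in starved 1 and starved 2, and at place 37 and 64 in normal 1 and normal 2. The median fold enrichment of these genes was 8.12 and 8.42 in the starved lists and 9.55 and 9.51 in the normal lists, below Cdk4 in each. Likeness to Cdk4 was measured as the mean absolute difference, over the 4 lists, of each gene's place by fold enrichment expressed as a percentile of its list. The nearest were Zmym6 (1.62 percentile points), Amdhd2 and Atp6v0c, which share a peak (1.88), Hps1 (1.92) and Med28 (2.15). Zmym6 had fold enrichments of 10.1 and 12.1 in the starved lists and 15.8 and 16.4 in the normal lists. In a look-up made after these places were known, the promoter window with the most copies of CACGTG held 4 for Zmym6, 3 for Amdhd2, 1 for Hps1, 1 for Med28 and 0 for Atp6v0c, so the copies varied among the genes most like Cdk4.

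At Mcm2, a subunit of the replicative helicase, there was no call in starved 1 or starved 2, while fold enrichment was 12.3 in normal 1 and 7.25 in normal 2. In the starved libraries the nearest summit lay 180 kb from the gene. The −log10 q was 16.9 and 8.51 in the normal lists, with ranks by q of 104 of 1645 and 369 of 2124. The pileups behind these unequal ratios were nearly the same, 18 and 17 reads, over local backgrounds of 0.541 and 1.48 reads. A peak of this pileup was among the upper 9.73% and 9.79% of the normal lists.

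Mcm2 spans chr6:88883474-88898780 on the minus strand, so its start is the upper end of the span. The peaks covered chr6:88898626-88898838 in normal 1 and chr6:88898608-88898800 in normal 2. Their summits lay 63 and 112 bp past the start, inside the gene, and 49 bp from each other. Both lie beyond the RefSeq window, by 14 and 63 bp, so the sequence under the summits was not read. The window itself, chr6:88898731-88899030, is given because the peaks reach into it; it held none of the searched motifs.
Mcm2: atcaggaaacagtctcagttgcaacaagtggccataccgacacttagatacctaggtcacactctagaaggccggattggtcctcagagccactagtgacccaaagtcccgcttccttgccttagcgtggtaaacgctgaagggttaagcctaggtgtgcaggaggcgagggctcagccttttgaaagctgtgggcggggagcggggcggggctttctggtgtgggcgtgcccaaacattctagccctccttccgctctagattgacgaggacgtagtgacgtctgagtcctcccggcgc

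At Mcm5, another helicase subunit, the starved lists again had no call, and the normal lists had a peak inside the gene with a fold enrichment of 5.47 and 5.46. It lay on chr8:75125355-75125506 in normal 1 and chr8:75125341-75125506 in normal 2, with the same end in both, and its summits were 2978 and 3026 bp from the nearer end of the gene. The −log10 q was 4.32 and 4.50, with ranks by q of 543 of 1645 and 806 of 2124 and ranks by fold enrichment of 591 and 902. The pileup was 5 reads over the lowest background of the list, 0.0979 reads, in both. Exactly the same fold enrichment was given to 225 of 1645 peaks in normal 1 and 275 of 2124 peaks in normal 2, and at least as many reads to 70.8% and 78.1% of peaks. The median fold enrichment of both normal lists was 5.46, so this peak stood at the middle of its lists by fold enrichment, a value tied over many peaks. It lay far from the Mcm5 start, where no list had a call.

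The peak nearest to Mcm5 from outside belonged to a neighbour. Hmox1, the gene of heme oxygenase 1, had a summit within 41 bp of its start in all 4 lists, with fold enrichments of 10.4 and 8.30 in the starved lists and 12.9 and 10.5 in the normal lists. These summits were 15809 and 15825 bp from Mcm5 in the starved lists and 15888 bp in both normal lists, so they fell outside the rule. Of all member calls, those at gene ends were at most 117 bp from an end, and the next closest summits were the 2978 and 3026 bp inside Mcm5, so no member lay near the limit of 1000 bp.

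**Figure D4:**
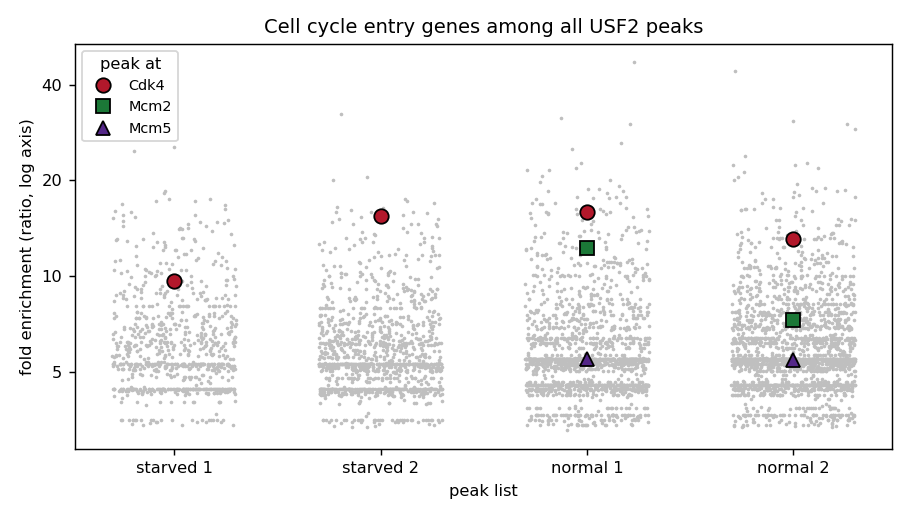
Fold enrichment (ratio, log axis) of every USF2 peak of each list (grey points, spread sideways for view) with the peaks at Cdk4, Mcm2 and Mcm5 marked. Cdk4 stands in the upper part of all 4 lists, Mcm2 in the upper part of normal 1 (12.3) and lower in normal 2 (7.25), and Mcm5 in a dense band at 5.47 and 5.46.

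The 7 members without a call were also without one in their surroundings. The nearest summit to Mcm7 lay 24.0 kb away, in normal 1, at an end of Mblac1. For Cdk2 the nearest was 205 kb away (both starved lists), for Mcm6 281 kb (normal 2), for Ccnd1 328 kb (both starved lists), and for Mcm3 337 kb (normal 1). For Mcm4 it was 1150 kb (starved 2) and for Cdk6 1450 kb (starved 2). Cdk6 is the longest member, at 190005 bp, and no summit lay inside it in any list. Cdk6 has the same cyclin D-dependent role as Cdk4 and was not called. Of the 3 kinase genes of this set 1 was called, in all 4 lists, as were 1.35% of all protein-coding genes. Of the 6 helicase genes 2 were called, in the normal lists alone, while 4.08% of all genes were called in both normal lists. The normal lists were the longer ones, and the call at Mcm5 rested on 5 reads. Nothing is read from these counts. At a median summit pileup of 8 and 6 reads in the starved lists and 5 and 6 in the normal lists, weaker binding at the members without a call may not have been detectable.

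The wider system was read from a list of 97 other genes of cell cycle entry and DNA replication, also set up with earlier results known. Of these, 4 were called in both starved lists (4.12%) and 3 in both normal lists (3.09%), and 11 in any list (11.3%), beside the backgrounds of 2.48%, 4.08% and 10.5% given above. At gene ends alone there were 2 in both starved lists, 2 in both normal lists and 4 in any list (4.12%, background 4.05%). Without normal 1, the normal condition rested on normal 2 alone, which called 6 genes (6.19%, beside 6.50% of all protein-coding genes). Without normal 2, it rested on normal 1 alone, which called 5 (5.15%, beside 5.46%). Without starved 1 the number of genes in all remaining lists was 2, by the addition of Rfc1. No share of all genes was computed for that count. None of the 7 CDK inhibitors or 7 CDK activators and ubiquitin ligase genes was called. The same held for the 16 pocket protein, E2F and related factors and the 6 genes of nucleotide supply. Widening the window to 5000 bp added E2f1, in both starved lists. Calls fell on 2 of 11 further cyclin and kinase genes, 2 of 9 origin licensing genes and 1 of 4 MCM relatives. They also fell on 1 of 10 helicase activation genes and 5 of 27 polymerase and fork genes. Each of these roles has few genes, and 10.5% of all protein-coding genes were called in any list, so no pattern is read from these counts.

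Fen1, the flap endonuclease that trims Okazaki fragments, was the 1 gene of the 97 called in all 4 lists (1.03%, beside 1.35% of all protein-coding genes). Its fold enrichment was 17.2 and 14.6 in the starved lists and 14.3 in both normal lists. It ranked 10 of 825 and 14 of 1178 by q in the starved lists and 64 of 1645 and 67 of 2124 in the normal lists. The summits lay 411 to 446 bp inside the annotated span, and 26 to 61 bp before a second RefSeq start of Fen1. An end of the neighbouring gene Tmem258 was 220 to 255 bp away, so the region cannot be assigned to 1 gene.

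Ccnh, Orc6 and Rpa1 also had peaks at gene ends. Ccnh, the cyclin of the CDK-activating kinase, was called in the starved lists alone, with fold enrichments of 7.04 and 6.73 and summits 57 and 39 bp from an end of the gene. Orc6, a subunit of the origin recognition complex, was called in the normal lists alone, with 6.44 in both, the same summit and 15 reads each. That summit was also 5 bp from an end of Vps35. Rpa1, of the single-strand DNA binding complex at forks, was called in normal 1 alone with 6.86, and the summit was 6 bp from an end of Smyd4. The window of Rpa1 held 1 CACGTG, 21.5 bp from that summit, whereas the Orc6 window held none.

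The other 7 called genes of the list had their summits inside the gene, more than 1000 bp from its ends. Orc4, also of the origin recognition complex, had 5.81 and 6.33 in the starved lists and no call in the normal ones. Its summits were 15 and 83 bp before an inner RefSeq start whose window held 1 CACGTG, and an end of Mbd5 lay 217 and 149 bp away. Mnat1, a partner of cyclin H, had 5.94 in normal 2 alone, 3 bp before an inner start. Mcm10, an activator of the helicase, had 4.42 and 5.30 in the starved lists, with identical peak edges. Rfc1, of the clamp loader, had 5.30 in starved 2 and 5.44 in both normal lists, where the peak was identical in start, end and summit and lay 6454 bp from the starved one. Recql4, of the RecQ helicase family, had 6.02 in normal 1. Pole, the leading-strand polymerase, had 6.38 and the fork protection gene Timeless 5.46, both in normal 2. The peaks at Mcm10, Rfc1, Recql4, Pole and Timeless had pileups of 4 to 6 reads.

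**Figure D5:**
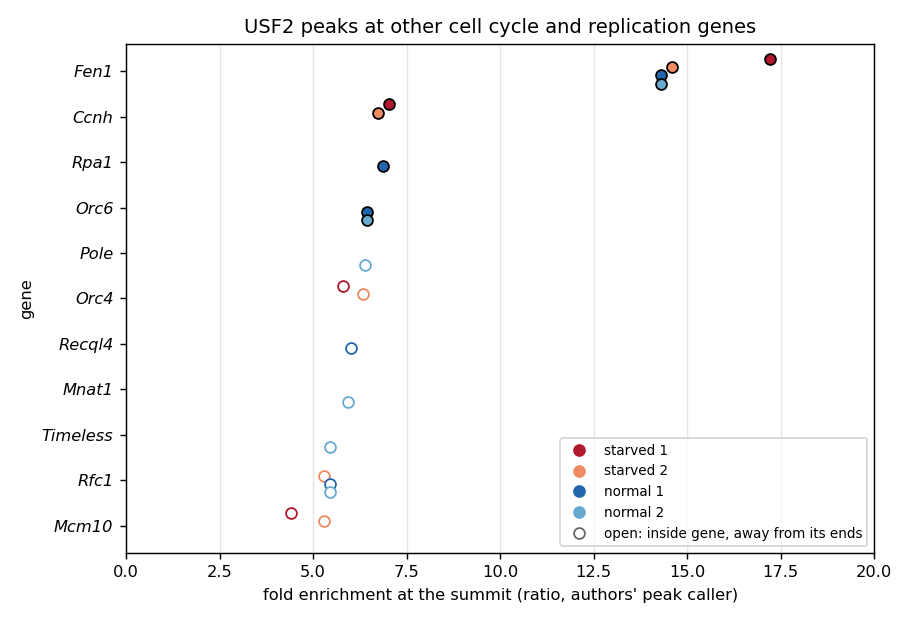
Fold enrichment (ratio, horizontal axis) of the USF2 peaks at the 11 called genes (vertical axis) of 97 other cell cycle and replication genes, coloured by peak list; filled points lie within 1000 bp of a gene end and open points inside the gene away from its ends. Fen1 stands apart at 14.3 to 17.2, and the other 10 genes lie between 4.42 and 7.04.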

How the data were processed

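USF2 ChIP-seq was deposited as 1 narrowPeak list per library, so replicates were not pooled. Per the submitters' processing notes, the build was GRCm38 and the tools were deepTools 3.5.1, MACS2 2.2.7.1 and Bowtie2 2.5.1, with no parameters. The labels of the input with the same condition and number name the same list, and how inputs entered the calling is not given in the sources used here. The deposited fold enrichment is a ratio of summit pileup to local background, with 1 added to both, made by the authors' caller. Beside it each deposited peak has its −log10 p and its −log10 q (highest q-value 0.0499). The deposited score, a truncated multiple of −log10 q, was not used. Fold and q were used to describe and rank peaks within a list.

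Computed here, with Python 3.11.15, numpy 2.4.6, pandas 2.3.3 and scipy 1.17.1, were calls of 21887 protein-coding genes (RefSeq gene table, GRCm38.p6), ranks, and pileups. For the pileup, every integer k gives a background through fold = (k + 1)/(background + 1), and the k whose Poisson upper tail came closest to −log10 p was kept; it matched within 0.000265 for every peak. Both steps were tested on simulated data. Peaks off the assembled chromosomes (8 in starved 2) were left out. The gene table gives neither strand nor exons; strand and start come from the RefSeq promoter table, and whether a peak is exonic or intronic is not given. Motifs were searched on both strands; 1 promoter sequence is not reported here. GTCACGTG contains CACGTG and was also counted with it.

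The members, the wider list of 97 genes and the alternatives were chosen with earlier results of these data known. Named were all members, neighbours with an end at a calling summit, every called gene of the wider list, the 5 genes most like Cdk4, and Lamp1, the first of each list. Hmox1, Mfsd1, Nxf2, Gm40008, Mblac1 and the E-box copies of the genes most like Cdk4 were chosen after values were seen. No test was made between conditions, since the calls chose the members and 2 lists a condition differ in depth and width; intervals are exact and cover counting error only.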

Additional observations from a re-analysis of the deposited data

How the results depend on the processing

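With 12 alternatives tried, Cdk4 was called in every list that was used. This was no test of Cdk4. Leaving out a list, the 5000 bp window and the overlap rule could not remove its calls. Its distances, q-values, ranks and pileups given above already met the other limits. Leaving out each replicate in turn left 3 members called in any list and in both normal lists, and 1 in both starved and in all 4 lists. In the wider list it gave 8 to 11 genes in any list, 4 to 5 in the starved lists, 3 to 6 in the normal lists and 1 to 2 in all lists, since 1 list can then decide for its condition. Gene ends alone gave 4 genes of the wider list in any list and 2 in both starved lists. A −log10 q of at least 5 gave 6 in any list, as did pileups of at least 10 reads. Shares of all protein-coding genes were computed for the rule of 1000 bp and for gene ends alone. Apart from counts of a single list, counts under the other alternatives have no such share beside them, so they are not compared with all genes. A summit inside a promoter window, an alternative added after seeing the data, gave 1 member in any list and 1 in both normal lists, with Mcm2 and Mcm5 lost, and 5 genes of the wider list in any list and 2 in both starved lists. Mcm5 was lost with gene ends alone, with −log10 q of at least 5 and with pileups of at least 10 reads, and kept 1 of its 2 lists when every list was cut to its 825 best peaks. Members with CACGTG were 25% of 8 and 12.5% with windows from 150 bases before the start, where Cdk6 has no copy. The other windows (500 and 5000 bp) and the overlap rule kept each count within 1.5 times. The 5000 bp window added E2f1, in both starved lists, to the wider list. No paired analysis was possible because the results come from no test. A median pileup of 5 to 8 reads limits what single weak peaks show.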
